A study of Mus musculus with 6 samples.

Results

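The miR-23, miR-24 and miR-27 microRNAs (miRNAs) of mouse sperm were followed through all rows of the deposited miRNA table whose base name is mmu-miR-23a, mmu-miR-23b, mmu-miR-24, mmu-miR-27a or mmu-miR-27b, whatever the arm or copy number (the prefix for mouse is left out below). This gave 11 of 778 features. Small RNA was sequenced from mature sperm of the cauda epididymis, where sperm are stored, in C57BL/6 males aged 8 weeks (C57BL/6J per the series design). Of the 6 samples, 3 came from mice made depressed by stress (stress sperm) and 3 from normal mice (normal sperm), with no transgene or other agent named. The kind of stress and whether each sample is 1 animal or a pool are not stated in the labels. The p-values below therefore reflect the scatter among these 6 libraries alone, and that scatter may be technical. Stress replicates 1 to 3 held 1045922, 1522849 and 1010203 miRNA reads, and normal replicates 1 to 3 held 1083237, 1112771 and 3067208.

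A miRNA is cut from a hairpin in a longer transcript by Drosha and Dicer, and 1 of the 2 arms of the hairpin is usually kept in an Argonaute protein as the guide while the other is mostly lost. Guides pair with messenger RNAs mainly through the seed, bases 2 to 8. The miR-23, miR-27 and miR-24 hairpins lie side by side in a pair of related clusters, each made as a single primary transcript, and their guides are the 3p arms. They are widely expressed, with known roles in blood vessels, blood cells and fat cells. In human cells, miR-23 represses glutaminase, miR-27 represses the fat-cell regulator PPARG and miR-24 represses cell-cycle genes. Mature sperm transcribe little, and part of their small RNA is known to be taken up in the epididymis.

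The mature sequences are shown because the 3p copies are nearly identical while the 5p arms are not, which bears on every value below. They are taken from the deposited table, written 5′ to 3′ with the seed in capitals. RefSeq (GRCm38.p6) lists 10 of the 11 with the same letters, miR-23b-3p being the one not listed there.
miR-23a-3p: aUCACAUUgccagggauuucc
miR-23b-3p: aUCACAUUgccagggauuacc
miR-27a-3p: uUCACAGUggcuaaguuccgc
miR-27b-3p: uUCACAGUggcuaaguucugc
miR-24-3p: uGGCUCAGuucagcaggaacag
miR-23a-5p: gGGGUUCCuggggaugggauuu
miR-23b-5p: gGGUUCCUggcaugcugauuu
miR-27a-5p: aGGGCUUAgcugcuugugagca
miR-27b-5p: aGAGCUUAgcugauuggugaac
miR-24-2-5p: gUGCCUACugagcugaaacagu
miR-24-1-5p: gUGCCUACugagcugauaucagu

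The 3p arms of miR-23a and miR-23b share a seed and differ by a single substitution, U19A, with positions counted from 1 at the 5′ end. The 3p arms of miR-27a and miR-27b also share a seed and differ by C19U alone. A read of the first 18 bases fits both copies of either pair, and counts that were not whole stood in 50% of the values of miR-23a-3p and of miR-23b-3p, in 33.3% of those of miR-27a-3p and miR-27b-3p and in 16.7% of those of miR-24-2-5p and miR-24-1-5p. The split between a and b copies is therefore uncertain, and the fold change of each summed 3p pair is given beside those of its copies. miR-24-3p is the same molecule from either cluster. The 5p arms tell the loci apart: miR-24-2-5p and miR-24-1-5p are alike over the first 16 bases and differ beyond them, and miR-27a-5p and miR-27b-5p differ at 8 positions.

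The miR-23a, miR-27a and miR-24-2 hairpins span 404 bases of chromosome 8 (chr8:84208518-84208921, plus strand, GRCm38). No other gene overlaps the first 2 in GENCODE M21, and Mir24-2 overlaps in part an exon of the long noncoding Gm26532. The miR-23b, miR-27b and miR-24-1 hairpins span 792 bases of chromosome 13 (chr13:63300484-63301275, plus strand) inside 2010111I01Rik (Aopep), the gene of an aminopeptidase. There Mir23b lies in an intron, while Mir27b and Mir24-1 each lie wholly within an exon of 1 transcript marked for nonsense-mediated decay. Mir24-1 also overlaps 3 exons in part. On the opposite strand, introns of Fancc, a DNA repair gene, cover all 3 hairpins. The hairpin of Mir23b, whose arms moved apart in the data below, is shown from RefSeq with the mature arms in capitals, and the hairpins of Mir24-2 and Mir24-1 show the 3p arm that they share.
Mir23b: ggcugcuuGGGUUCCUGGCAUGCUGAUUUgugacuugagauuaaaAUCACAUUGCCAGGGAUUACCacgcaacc
Mir24-2: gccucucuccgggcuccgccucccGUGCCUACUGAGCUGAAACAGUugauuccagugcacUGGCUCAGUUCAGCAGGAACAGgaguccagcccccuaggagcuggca
Mir24-1: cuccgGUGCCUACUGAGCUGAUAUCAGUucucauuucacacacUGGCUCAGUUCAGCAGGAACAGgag

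The labelled cell type was checked on marker miRNAs of male germ cells and of cells that a sperm preparation could carry along. All 13 germ-cell features, among them miR-34b, miR-34c and the X-linked testis miRNAs, were detected, with a summed level of 3336 to 4488 CPM in stress and 5261 to 9447 CPM in normal sperm. As a share of miRNA reads they overlapped, at 0.459% to 0.558% in stress and 0.452% to 0.645% in normal sperm. In edgeR 1 of 11 tested was lower (median log2 fold change 0.00089), and with the miRNA total in place of TMM 4 of 11 were higher. In DESeq2 and with relative log expression (RLE) factors 2 of 11 were lower. The calls were 0 of 11 without stress replicate 2 or 3 and 3 of 11 (1 higher, 2 lower) without normal replicate 3. CPM here are miRNA counts relative to the miRNA total (the usual CPM) scaled by the trimmed mean of M-values (TMM), and the TMM factors ran from 1.24 to 1.38 in stress and from 0.683 to 0.859 in normal samples. Summed endothelial and smooth muscle markers ran from 7144 to 7899 CPM in stress and 3404 to 6674 CPM in normal sperm, with 2 of 6 tested markers higher (edgeR, adjusted p under the threshold of 0.05). There were 1 of 6 higher without stress replicate 3 and 5 of 6 with the miRNA total. Summed leukocyte markers ran from 1043 to 1349 CPM in stress and 480.6 to 921 CPM in normal sperm (0 of 4 past the threshold in edgeR, median log2 fold change 1.07). There were 3 of 4 higher with the miRNA total, in DESeq2 or without normal replicate 3. With RLE factors or without stress replicate 1, 1 of 4 was higher. Epithelial markers summed to 21530 to 24472 CPM in stress and 17379 to 21481 CPM in normal sperm, with 0 of 6 past the threshold. There were 6 of 6 higher with the miRNA total and 1 of 6 with RLE factors, in DESeq2 or without normal replicate 3. Red blood cell markers summed to 185 to 618 CPM in stress and 383 to 1258 CPM in normal sperm, with 0 of 2 past the threshold and 1 of 2 lower in DESeq2 or without normal replicate 3 or stress replicate 1. Of all 236 miRNAs, 2.54% were higher and 10.2% lower in edgeR with TMM, and 40.7% were higher and 4.24% lower with the miRNA total. With the total of the miRNA, piRNA and tRNA fragment tables, 0 markers of each list passed. No listed marker was at 0 in all samples. The miR-23, miR-24 and miR-27 clusters are active in endothelial and blood cells, and the part of these cells in the values below was not tested. Fewer cells of a type and less RNA per cell cannot be told apart in such bulk samples.

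The 3p arms made up nearly all reads of the 11 features, 96.1% to 97.4% in stress and 91.4% to 95.1% in normal sperm. The order of levels below is on TMM-scaled CPM. The mature sequences are all 21 to 23 bases long, so no length correction was made. In stress sperm the order was miR-27b-3p, miR-24-3p, miR-23b-3p, miR-23a-3p and miR-27a-3p, and all neighbours stood apart except miR-23a-3p and miR-27a-3p, whose ranges overlapped. In normal sperm it was miR-27b-3p, miR-24-3p, miR-23b-3p, miR-27a-3p and miR-23a-3p, and of these neighbours only miR-24-3p and miR-23b-3p stood apart. The most abundant, miR-27b-3p, ranked 46 of 778 features by its mean share of the miRNA reads, and miR-23a-3p ranked 98. miR-23a-5p and miR-24-1-5p ranked 449 and 377.

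Among the guides, miR-23a-3p came nearest to the threshold. miR-23a-3p stood at 206, 211 and 194 CPM in stress replicates 1 to 3, against 26.3, 105.3 and 102 CPM in normal replicates 1 to 3. The stress samples lay close together and above every normal sample, and normal replicate 1 was far below the others. The log2 fold change was 1.37 ± 0.43 (SE, n = 3 per group), and edgeR's quasi-likelihood test with Benjamini-Hochberg adjustment over 236 miRNAs gave an adjusted p = 0.051, which misses the threshold. The test was passed without normal replicate 1 (0.96, adjusted p = 0.039 in edgeR), normal replicate 3 (1.65, adjusted p = 0.040) or stress replicate 1 (1.41, adjusted p = 0.045). It was also passed without the count filter (1.40, adjusted p = 0.0020) and with DESeq2 (1.43, adjusted p = 0.0084). It was not passed without normal replicate 2, stress replicate 2 or stress replicate 3 (adjusted p = 0.074, 0.098 and 0.071 in edgeR) or with a replicate block (adjusted p = 0.069). Calls over all miRNAs were 22 of 258 without normal replicate 1, 55 of 255 without normal replicate 3 and 30 of 247 without stress replicate 1. They were 49 of 775 without the count filter and 47 of 236 in DESeq2.

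miR-23b-3p, the chromosome 13 copy, stood at 257, 271 and 333 CPM in stress and 105.3, 224 and 203 CPM in normal sperm. The groups did not overlap, normal replicate 1 again being lowest. Its log2 fold change of 0.69 ± 0.32 did not pass in edgeR (adjusted p = 0.16), and it was 0.41 without normal replicate 1. Since short reads are split between the copies, miR-23a-3p and miR-23b-3p were also summed into 1 feature after the data had been seen. The sum was at 0.94 ± 0.35 and did not pass in edgeR (adjusted p = 0.094). It passed in DESeq2 (1.01 ± 0.36, adjusted p = 0.033). In edgeR it passed without the count filter (0.98, adjusted p = 0.037) and with the miRNA total (1.70, adjusted p = 0.0094). It did not pass in edgeR with RLE factors (adjusted p = 0.056) or with any sample left out (adjusted p from 0.072 to 0.195).

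miR-27b-3p, the most abundant guide of either cluster, stood at 935, 1285 and 964 CPM in stress and 402, 574 and 875 CPM in normal sperm. The 2 groups did not overlap, although normal replicate 3 came close to stress replicate 1. The log2 fold change was 0.78 ± 0.32 with an adjusted p = 0.13 in edgeR, and without normal replicate 3 it was 1.15 ± 0.31 with an adjusted p = 0.031. miR-27a-3p, its chromosome 8 copy, stood at 160.4, 208 and 179.9 CPM in stress and 153, 94.8 and 271 CPM in normal sperm. The stress samples lay inside the range of the normal ones, and edgeR gave 0.07 ± 0.36 (adjusted p = 0.90). The sum of miR-27a-3p and miR-27b-3p was at 0.65 ± 0.32 (adjusted p = 0.17 in edgeR) and passed without normal replicate 3 (1.05, adjusted p = 0.032) and with the miRNA total (1.37, adjusted p = 0.012).

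miR-24-3p, which both clusters encode, stood at 570.2, 527 and 556 CPM in stress and 498, 369 and 535 CPM in normal sperm. Normal replicate 3 lay within the stress range, and the log2 fold change of 0.24 ± 0.26 did not pass in edgeR (adjusted p = 0.56). It was 0.11 without normal replicate 2 and 0.38 without normal replicate 3.

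The 5p arms are the minor strands and had far fewer reads. miR-23b-5p stood at 5.94, 11.6 and 7.20 CPM in stress and 25.1, 22.4 and 18.6 CPM in normal sperm, from 8 to 22 and 17 to 49 reads per sample. Every stress sample was below every normal one, and the log2 fold change was −1.36 ± 0.41 (edgeR, adjusted p = 0.051), which misses the threshold. It did not pass with any sample left out (adjusted p from 0.068 to 0.187 in edgeR) or without the count filter (adjusted p = 0.12). miR-27a-5p stood at 16.3, 30.7 and 14.4 CPM in stress and 25.1, 59.2 and 38.7 CPM in normal sperm. Stress replicate 2 lay above normal replicate 1, and edgeR gave −0.97 ± 0.42 (adjusted p = 0.14), or −0.63 without normal replicate 2.

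miR-24-2-5p was at 52.0, 35.4 and 22.3 CPM in stress and 40.7, 30.3 and 28.9 CPM in normal sperm, with a wide overlap (0.15 ± 0.37, adjusted p = 0.81 in edgeR). miR-27b-5p was at 9.65, 14.8 and 13.7 CPM in stress and 16.7, 9.21 and 11.8 CPM in normal sperm (0.03 ± 0.42, adjusted p = 0.97 in edgeR). The other 2 members were too rare to be tested. miR-23a-5p had 0, 1 and 3 reads in stress and 0, 1 and 5 reads in normal sperm, and miR-24-1-5p had 3, 7 and 1 reads in stress and 3, 0 and 4.5 reads in normal sperm. A count of 0 allows up to 3 reads, which is 2.87 CPM of the miRNA total in stress replicate 1 and 2.77 and 2.70 CPM in normal replicates 1 and 2.

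**Figure D1:**
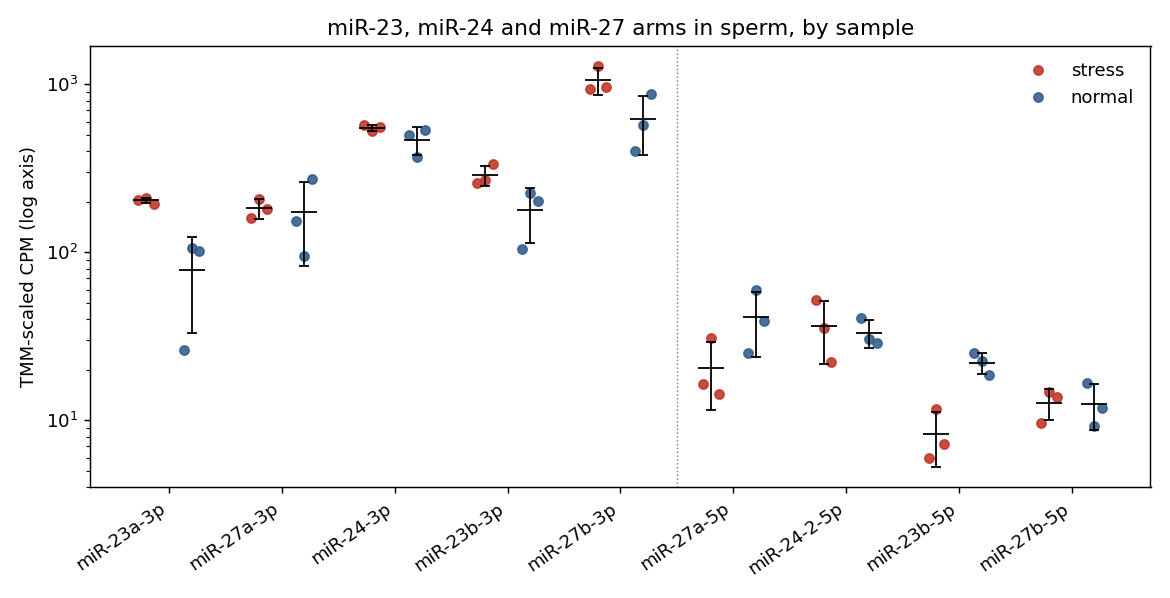
TMM-scaled CPM (log axis) of the 9 tested arms in the 3 stress samples (red) and the 3 normal samples (blue), each point a sample, with the mean and SD in black; 3p arms are left of the dotted line and 5p arms right of it. The stress points of miR-23a-3p lie between 194 and 211 CPM, above all normal points, and those of miR-23b-5p lie between 5.94 and 11.6 CPM, below all normal points.

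Of the 9 members tested 0 passed in edgeR with TMM, while 12.7% of all 236 miRNAs passed (2.54% higher and 10.2% lower in stress). At an unadjusted p under 0.05 there were 4 members, miR-23a-3p, miR-23b-5p, miR-27b-3p and miR-27a-5p, where 32.2% of all miRNAs stood. The groups did not overlap for 4 of the 9, miR-23a-3p, miR-23b-3p and miR-27b-3p higher and miR-23b-5p lower in stress, against 39.4% of all miRNAs, so the share of members was near the background. The median log2 fold change was 0.15 over the 9 members and 0.00063 over all 236 miRNAs. DESeq2 passed 1 member, miR-23a-3p, with 19.9% of all miRNAs passing.

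The number of members called changed with the scaling. With the RLE factors in edgeR, miR-23a-3p rose (1.43 ± 0.41, adjusted p = 0.041) and miR-23b-5p fell (−1.33 ± 0.42, adjusted p = 0.048), while 18.6% of all miRNAs passed (6.78% higher and 11.9% lower). With the total of the miRNA table and no factor, 4 of the 9 were higher in edgeR: miR-23a-3p at 2.12 ± 0.45 (adjusted p = 0.0096), miR-27b-3p at 1.503 ± 0.353 (adjusted p = 0.011), miR-23b-3p at 1.46 ± 0.34 (adjusted p = 0.011) and miR-24-3p at 0.97 ± 0.30 (adjusted p = 0.024). With that scaling 44.9% of all miRNAs passed (40.7% higher and 4.24% lower), and the median log2 fold change of all miRNAs moved to 0.76, not far below that of miR-24-3p. With the total of the miRNA, piRNA and tRNA fragment tables, whose piRNA and tRNA fragment depths are estimates, 0 members and 2.54% of all miRNAs passed (1.27% higher and 1.27% lower), the median of all miRNAs was 0.25, and miR-23a-3p was at 1.52 ± 0.67 (adjusted p = 0.34). The 5 3p arms were above 0 and miR-23b-5p and miR-27a-5p below 0 under each of these 4 scalings. With the miRNA total, however, miR-23b-5p was only at −0.63 (edgeR, adjusted p = 0.22) and miR-27a-5p at −0.23 (adjusted p = 0.67).

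**Figure D2:**
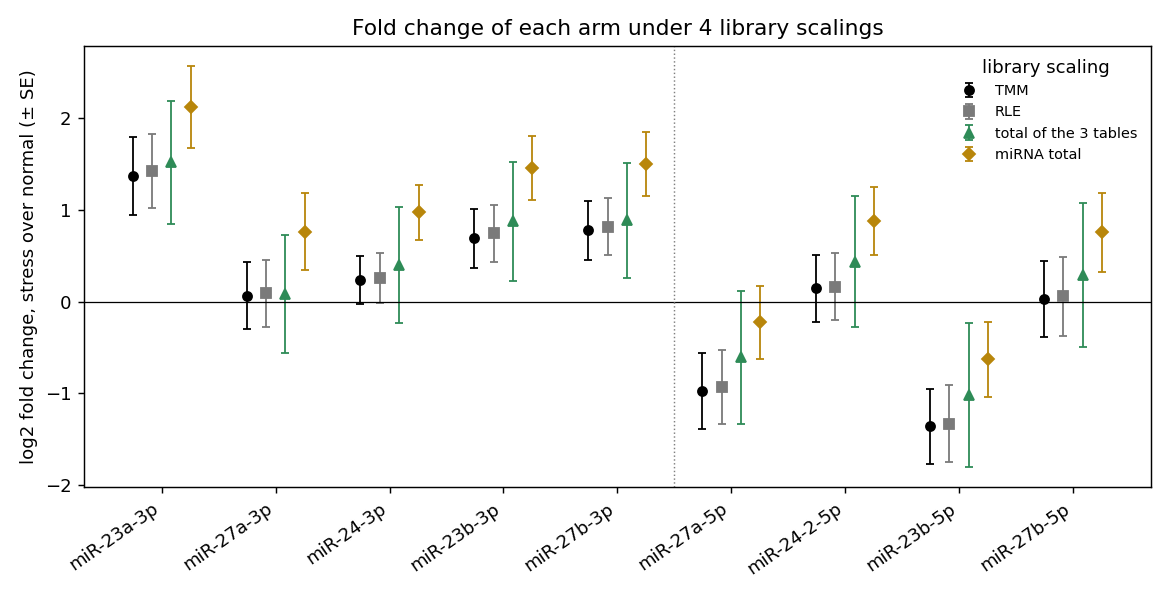
Log2 fold change of stress over normal (vertical axis, ± SE) for the 9 tested arms under 4 library scalings in edgeR: TMM, RLE, the total of the 3 tables and the miRNA total. The miRNA total gives the highest value of each arm, such as 2.12 for miR-23a-3p against 1.37 with TMM, and leaves miR-23b-5p and miR-27a-5p below 0.

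As a share of the miRNA reads, which needs no scaling factor, the 11 features together made up 0.285%, 0.322% and 0.315% in stress and 0.0999%, 0.102% and 0.179% in normal sperm. The stress samples were higher than every normal sample, at 0.308% ± 0.0197 against 0.127% ± 0.0454 (SD, n = 3 each), a 2.42-fold ratio of means (exact permutation p = 0.1 two-sided, the smallest that 3 samples against 3 can give, and 0.1 after adjustment over 4 shares). The chromosome 13 guides miR-23b-3p and miR-27b-3p took 0.154%, 0.193% and 0.179% in stress and 0.0391%, 0.0545% and 0.0926% in normal sperm, a 2.82-fold ratio of means. The chromosome 8 guides miR-23a-3p and miR-27a-3p took 0.0471%, 0.0519% and 0.0515% in stress and 0.0138%, 0.0137% and 0.0321% in normal sperm, a 2.53-fold ratio. Neither share overlapped between the groups, normal replicate 3 being the nearest normal sample in both. As a share of miRNA reads, 56.8% of all 236 miRNAs were likewise higher without overlap. With the miRNA total, the median log2 fold change of all 236 was 0.76 in edgeR.

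miR-24-3p took 0.0734%, 0.0654% and 0.0765% in stress and 0.0384%, 0.0252% and 0.0459% in normal sperm, a 1.97-fold ratio of means. The 95% Wilson intervals of these shares were at most ± 0.0109 percentage points and cover counting error only. Single features did not overlap as a share for 5 of the 9 tested members, 4 higher and miR-23b-5p lower, where 62.3% of all miRNAs did not overlap (56.8% higher and 5.51% lower). The 4 shares kept their direction with a denominator that left out the abundant miR-148a-3p and let-7. The differences in percentage points were 0.305 for all members, 0.213 for the chromosome 13 guides, 0.0532 for the chromosome 8 guides and 0.0445 for miR-24-3p. With that denominator miR-24-3p overlapped between the groups (exact permutation p = 0.2, n = 3 each).

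Ratios between members cancel the scaling and show how cluster mates and copies shifted against each other. Of 11 ratios, 0 had an adjusted exact permutation p under 0.27, and the smallest p that 3 against 3 samples allow is 0.1 before adjustment. In the chromosome 8 cluster, there were 0.778, 0.989 and 0.928 reads of miR-27a-3p for each read of its neighbour miR-23a-3p in stress sperm. In normal sperm there were 5.84, 0.895 and 2.65 reads. Normal replicate 2 lay among the stress samples, and the mean log2 ratio was −0.16 ± 0.18 in stress and 1.26 ± 1.36 in normal sperm (SD, n = 3 each; exact permutation p = 0.3). The difference of −1.43 was −0.79 without normal replicate 1 and −2.14 without normal replicate 2. In the chromosome 13 cluster, miR-27b-3p outnumbered miR-23b-3p by 3.64, 4.75 and 2.89 in stress and 3.82, 2.55 and 4.32 in normal sperm, and the log2 ratios of 1.88 ± 0.36 and 1.80 ± 0.40 overlapped widely (exact permutation p = 0.8, n = 3 each).

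Between copies, miR-23b-3p stood to miR-23a-3p at 1.25, 1.29 and 1.71 in stress and 4, 2.11 and 1.98 in normal sperm. Every stress sample was below every normal sample, and the log2 ratio differed by −0.87 (exact permutation p = 0.1, n = 3 each; 0.28 after adjustment over 11 ratios). Without normal replicate 1 it differed by −0.55 (exact permutation p = 0.2). miR-27b-3p stood to miR-27a-3p at 5.84, 6.17 and 5.34 in stress and 2.62, 6.02 and 3.22 in normal sperm. There the stress samples were tight and normal replicate 2 lay among them (difference 0.64, exact permutation p = 0.3, n = 3 each), and the difference was 0.39 without normal replicate 1 and 0.99 without normal replicate 2. miR-24-3p stood to the sum of the other 3p arms at 0.366, 0.267 and 0.333 in stress and 0.726, 0.369 and 0.369 in normal sperm. The groups did not overlap, but only by the margin between stress replicate 1 and normal replicates 2 and 3. The log2 difference of −0.53 was −0.21 without normal replicate 1.

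**Figure D3:**
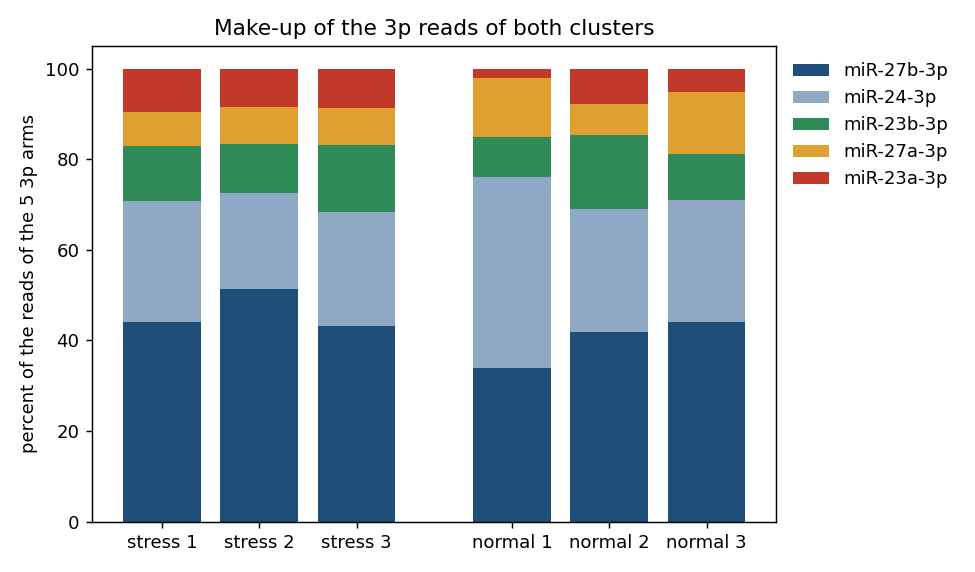
Percent of the reads of the 5 3p arms (vertical axis) that each arm took in the 3 stress and the 3 normal samples. miR-27b-3p is the largest part in each sample except normal replicate 1, and miR-23a-3p takes 8.41% to 9.66% in stress against 2.17% to 7.75% in normal sperm.

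Reads were listed by locus as follows. Of the 3p reads of miR-23 and miR-27, those listed as the chromosome 13 copies made up 76.5% to 78.8% in stress and 73.9% to 79.9% in normal sperm. Of the miR-24 5p reads, 90.5% to 96.9% in stress and 91.9% to 100% in normal sperm were listed as miR-24-2-5p from chromosome 8. Of the miR-27 5p reads, miR-27a-5p of chromosome 8 made up 51.3% to 67.4% in stress and 60.0% to 86.5% in normal sperm. The miR-23 5p reads were 76.9% to 100% miR-23b-5p in stress and 90.7% to 100% in normal sperm. Each of these ranges overlapped between the groups.

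The balance of the arms was read from the 5p share of each hairpin, and for miR-23b it was lower in stress. The 5p arm held 2.26%, 4.12% and 2.11% of the miR-23b reads in stress and 19.4%, 9.07% and 8.41% in normal sperm. The highest stress sample had a 95% Wilson interval of 2.74% to 6.16% and the lowest normal sample one of 6.42% to 10.9%. These intervals cover counting error only, not the scatter between libraries. The miR-23b-3p counts also rest on the uncertain split with miR-23a-3p, and no arm ratio was taken on the summed pair. The log2 ratio of 5p to 3p was −5.11 ± 0.52 in stress and −2.92 ± 0.77 in normal sperm (exact permutation p = 0.1, n = 3 each; 0.28 after adjustment over 11 ratios).

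To set this beside other hairpins, limma was run on the log2 arm ratios of the 40 hairpins whose arms were both tested, a test added after the data had been seen. The 5p to 3p ratio of miR-23b fell by 2.19 ± 0.67 (SE) on the log2 scale in stress (limma, adjusted p = 0.0088 over 40 hairpins), and the 3 stress samples lay below the 3 normal ones. Without stress replicate 3 it was −2.01 with an adjusted p = 0.062, and without each other sample it passed. Shifts of arm balance were frequent: 35% of the 40 hairpins passed, 20% with a lower ratio, and 45% had an unadjusted p under 0.05. The groups did not overlap for 57.5%, and for 25% with a lower ratio in stress. A negative difference of any size stood in 50%, and the median difference over the 40 was −0.03.

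The miR-27a 5p arm held 9.26%, 12.9% and 7.39% of that hairpin's reads in stress and 14.1%, 38.5% and 12.5% in normal sperm. Stress replicate 2 lay above normal replicate 3, and the log2 ratio differed by −1.19 ± 0.50 (limma, adjusted p = 0.054). Normal replicate 2 had the highest 5p share, and the difference was −0.52 ± 0.44 without that sample (limma, adjusted p = 0.35). It passed without normal replicate 1 or 3 (−1.47 and −1.58, adjusted p = 0.028 and 0.041 in limma) and with 1 instead of 0.5 added to the counts (adjusted p = 0.033). For miR-27b the difference was −0.82 ± 0.75 (adjusted p = 0.34) and, without normal replicate 1, −0.33.

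The miR-24 5p arms together stood to miR-24-3p at a log2 ratio of −3.90 ± 0.61 in stress and −3.72 ± 0.34 in normal sperm (exact permutation p = 0.7, n = 3 each). The groups overlapped. miR-24-2-5p stood to miR-24-1-5p at a log2 ratio of 3.96 ± 0.69 in stress and 4.27 ± 1.16 in normal sperm (exact permutation p = 0.8, n = 3 each), on very few reads of the second. The miR-23a 5p to 3p log2 ratio was −7.81 ± 1.44 in stress and −5.61 ± 0.15 in normal sperm (exact permutation p = 0.1, n = 3 each), but its 5p arm had at most 5 reads per sample.

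**Figure D4:**
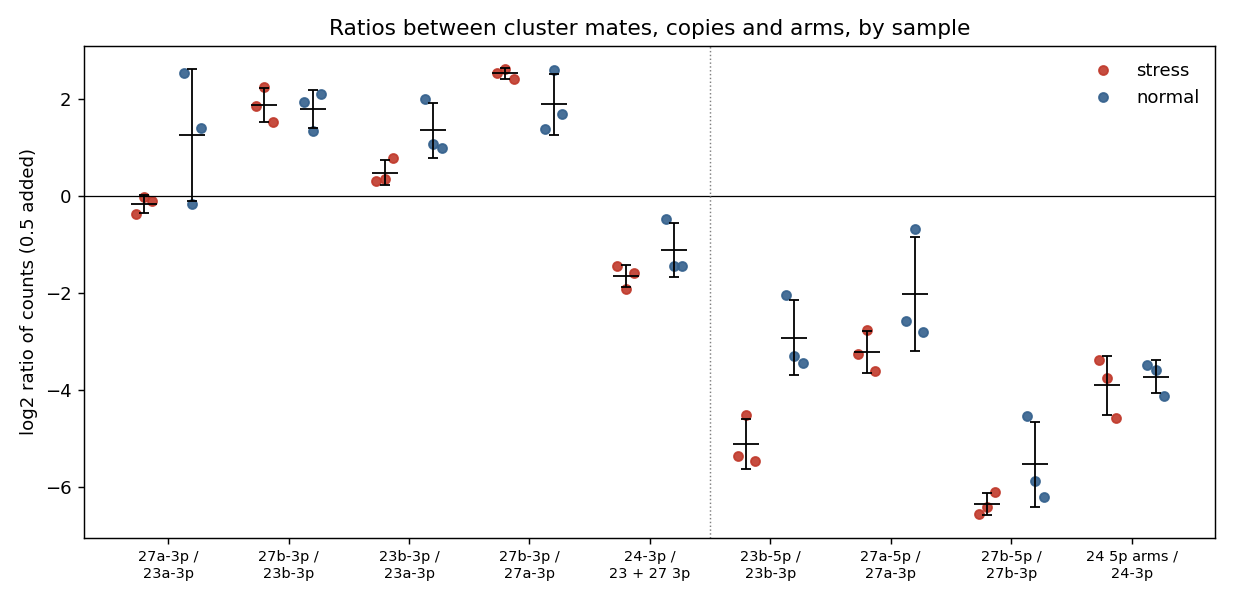
Log2 ratios of counts with 0.5 added (vertical axis) between cluster mates and copies (left of the dotted line) and between arms (right), with the 3 stress samples in red, the 3 normal samples in blue and the mean and SD in black. The stress points of 23b-5p to 23b-3p lie below all normal points (means −5.11 and −2.92), and those of 27b-3p to 23b-3p overlap with the normal ones.

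**Figure D5:**
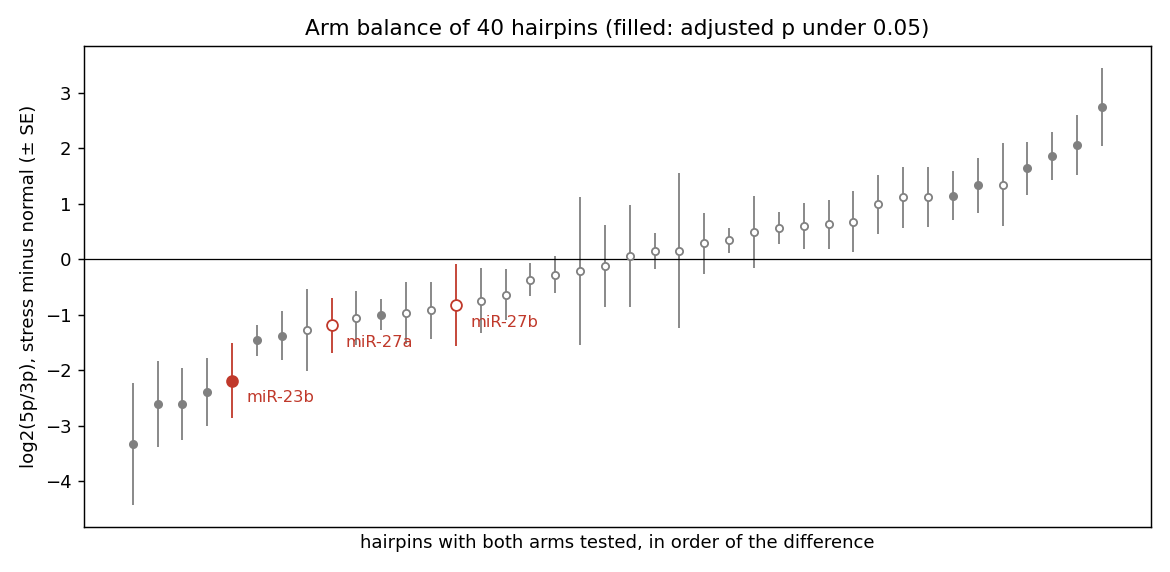
Difference of the log2 ratio of 5p to 3p counts, stress minus normal (vertical axis, ± SE), for the 40 hairpins with both arms tested, in order of size. Filled points had a limma adjusted p under 0.05; miR-23b (−2.19) is filled, and miR-27a (−1.19) and miR-27b (−0.82) are open.

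Other miRNAs of the same loci and seed were looked up by position and sequence. No other feature of the table shares bases 2 to 8 with a 3p arm of the 5 miRNAs. miR-128-3p (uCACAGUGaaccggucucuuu, seed in capitals), a miRNA abundant in brain, has as its seed bases 3 to 9 of miR-27. It stood at 549, 413 and 484 CPM in stress and 1414, 804 and 919.9 CPM in normal sperm, without overlap. It fell (−1.12 ± 0.30, edgeR adjusted p = 0.031), but not with the miRNA total (−0.37, adjusted p = 0.35) or the total of the 3 tables (−0.86, adjusted p = 0.76). Its call was also lost without normal replicate 1 (adjusted p = 0.060 in edgeR) or stress replicate 1, 2 or 3 (adjusted p = 0.053, 0.13 and 0.10).

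Within 100 kb of the chromosome 8 cluster, on the other strand, lie miR-181c and miR-181d, members of a family known from lymphocytes. Of their 4 arms only miR-181d-5p was tested. It stood at 78.7, 91.0 and 74.9 CPM in stress and 56.2, 48.7 and 63.0 CPM in normal sperm. The groups did not overlap, as for 39.4% of all 236 miRNAs. The log2 fold change of 0.53 ± 0.27 did not pass in edgeR (adjusted p = 0.18). With the miRNA total it was 1.27 ± 0.30 and passed (adjusted p = 0.011 in edgeR), where 44.9% of all miRNAs passed. miR-3074-5p, read from the strand opposite to the miR-24 hairpins, had 0 reads in each stress sample and 1, 3 and 11 reads in normal sperm, too few to test.

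The 3 other tested miRNAs with the highest Pearson r of log2 CPM over the 6 samples were named for each 3p arm, as a description that includes the difference between the groups and the TMM factors. For miR-23a-3p they were miR-30b-5p, miR-30a-5p and miR-221-3p (r = 0.99, 0.99 and 0.98). For miR-23b-3p they were miR-221-3p, miR-30a-5p and the smooth muscle marker miR-143-3p (r = 0.98, 0.97 and 0.97). For miR-27b-3p they were miR-652-3p, the epithelial marker miR-200a-3p and the myeloid marker miR-223-3p (r = 0.99, 0.98 and 0.96). For miR-24-3p they were miR-181a-5p, miR-455-3p and miR-29a-3p (r = 0.97, 0.95 and 0.95), and for miR-27a-3p miR-1843b-5p, miR-21a-5p and miR-99a-5p (r = 0.95, 0.89 and 0.86). None of these miRNAs passed in edgeR with TMM, with adjusted p from 0.054 for miR-223-3p (2.09 on the log2 scale) upward.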

How the data were processed

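Per the labels' protocols, TRIzol was used on sperm and an Illumina TruSeq kit for the libraries, sequenced at BGI. Bowtie is the sole tool in the submitters' processing notes. For its version, the genome build, the annotation and how reads were counted, the sources used here give nothing. The deposited miRNA table holds expected counts by the authors, 92% of them whole within 0.001. The deposited piRNA and tRNA fragment tables hold RPM, scaled by the authors to each table. They served only to estimate library totals, from the value of 1 read.

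Counts were rounded and tested in edgeR 4.0.16 (R 4.3.3) with filterByExpr at a minimum count of 10, TMM and the quasi-likelihood test on all miRNAs, stress minus normal, without a replicate block, and with Benjamini-Hochberg adjustment at 0.05. SE is the log2 fold change over the square root of F. DESeq2 1.42.0 and limma 3.58.1 (log2 arm ratios, 0.5 added) were alternatives. Scripts were tested on simulated data. Shares and ratios were tested by exact permutation. All members, their neighbours within 100 kb, seed relatives and the likeness rule set the named miRNAs. The members, lists and tests were chosen with earlier results of these data known.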

Additional observations from a re-analysis of the deposited data

How the results depend on the processing

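The 15 shares and ratios kept their direction in 124 of 129 alternatives. These include a paired permutation for each of the 15, which leaves the difference unchanged and so could not reverse it. The 5 reversals came from leaving out a sample: the log2 difference of miR-27b-3p to miR-23b-3p, 0.08 with all samples, ran from −0.14 to 0.26, that of miR-24-2-5p to miR-24-1-5p (−0.30) from −0.78 to 0.34, and that of the miR-24 5p arms to miR-24-3p (−0.18) from −0.44 to 0.16. Among single arms in edgeR, leaving out a sample also turned miR-27a-3p (−0.21 to 0.59), miR-27b-5p (−0.10 to 0.24) and miR-24-2-5p (−0.16 to 0.39). The 30 calls over all 236 miRNAs became 44 with RLE, 106 with the miRNA total, 6 with the total of the 3 tables and 47 in DESeq2. Without the count filter 49 of 775 were called. Leaving out a sample gave between 17 of 246 (without stress replicate 3) and 55 of 255 (without normal replicate 3). The 0 calls of 9 members became 2 with RLE, 4 with the miRNA total, 1 in DESeq2 and 0 to 2 leaving out a sample. Without the filter 1 of 11 members was called (miR-23a-3p). Deviations of same-numbered samples correlated at 0.11, −0.21 and 0.12, so the replicate numbers were not taken as pairs; a replicate block gave 28 calls, 0 of them members. The cause of these shifts was not tested. With 3 samples a group the exact permutation test cannot reach 0.05, and the 5p arms rest on few reads.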
